A study of Glycine max with 18 samples.

Results

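The 85 probes described here read at least 4-fold lower in roots of the soybean cultivar DT2008 than in roots of W82 at all 3 times of a dehydration series. They were selected on these measured values: from the group means of the log2 array values, the difference DT2008 minus W82 had to be at or below -2 before dehydration, after 2 h and after 10 h. The set holds 85 probes, 0.128% of those on the array. A further probe that met the threshold was left out, and the other 66109 did not meet it. The cultivar differences of these probes are therefore given as a description, with no test. The tests below are of the response to dehydration within each cultivar. Those contrasts were not among the differences used for the selection, but they are formed from the same group means, so they are not wholly independent of it.

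The study compared roots of 14-d-old soybean plants of 2 cultivars, DT2008, a drought-tolerant cultivar, and W82 (Williams 82), the more drought-sensitive reference cultivar. Plants were grown 6 to a pot in vermiculite under well-watered greenhouse conditions, were then taken out and dried on paper, and their roots were collected. The 6 groups were DT-C, DT-D2 and DT-D10 for DT2008 at 0, 2 and 10 h of dehydration, and W-C, W-D2 and W-D10 for W82 at the same times. Each group held 3 arrays from 3 biological replicates, 18 arrays of the 66K soybean GeneChip in all, and which plants or pots made up a replicate was not given in the sources used here. The 2 cultivars differ throughout the genome, so a difference in transcript level and a difference in the sequence under a probe cannot be told apart in these arrays. Whether the probes match the DT2008 sequence was not tested.

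Many of the genes that could be named belong to the NB-LRR family, plant immune receptors inside the cell that bind nucleotides through an NB-ARC domain and carry leucine-rich repeats. One branch of the family carries a TIR domain at its start, and others, such as RPM1 of Arabidopsis, carry a coiled coil. In plants these genes lie in clusters of near-identical copies whose number and sequence differ widely between cultivars of a species, so a probe for one copy can also take up signal from another. Splitting of signal among such copies was not tested here.

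The deposited values were centred on each probe's median over the 18 arrays, so 0 marks the middle of that probe's own values and levels cannot be compared between probes. These values carry no probe brightness, and whether a low reading in DT2008 was above the array's background could not be seen. Over the 85 probes the median value of an array ran from -1.52 to -1.39 among the 9 DT2008 arrays and from 1.51 to 2.00 among the 9 W82 arrays. The median deviation of an array from its group mates lay between -0.19 and 0.14, but single probes deviated further. W-D10 replicate 3 lay over 1 log2 unit from the mean of its group mates on 9 of the 85 probes, 7 of them below and 2 above, and the other arrays did so on 0 to 7 probes. The W82 counts of calls at 10 h, and the calls of named genes that were lost without W-D10 replicate 3, are given with and without it. Other summaries are given with all arrays. Within groups, arrays correlated over all probes at r = 0.37 to 0.72, lowest within W-D10 and highest within W-C. The 9 probes of the photosynthesis list, a marker of shoot tissue, averaged -0.35 to -0.12 on DT-C arrays, 0.33 to 0.59 on DT-D2 arrays and -0.08 to 0.31 on DT-D10 arrays. In W82 they averaged -0.45 to -0.43 on W-C, -0.32 to -0.06 on W-D2 and -0.25 to 0.18 on W-D10 arrays. The 7 probes of the nodule list averaged -0.80 to -0.61 in DT-C, -0.01 to 0.16 in DT-D2 and -0.12 to 0.01 in DT-D10, and on W82 arrays -0.64 to -0.23 at 0 h, -0.11 to 0.14 at 2 h and -0.03 to 0.12 at 10 h. Both lists were thus higher at 2 h and at 10 h than at 0 h in both cultivars, and their part in the dehydration results was not tested.

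In 83 of the 85 probes all 9 DT2008 arrays lay below all 9 W82 arrays, a separation that 1.2% of all probes showed (795 probes) and that the selection favours. The median difference was -3.34 at 0 h, -3.28 at 2 h and -3.07 at 10 h, that is 10.1-fold, 9.68-fold and 8.37-fold lower in DT2008, where the median of all probes was 0.01, 0.03 and 0.02. Averaged over the 3 times, the differences ran from -6.03 (65.2-fold) to -2.08 (4.22-fold). Of the 85 probes, 18 had a mean difference at or below -4, 29 lay between -4 and -3, and 38 lay above -3.

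For most probes the difference shifted by less than 1 log2 unit over the time course. The range of the 3 differences of a probe had a median of 0.69 and was under 1 for 58 of the 85 probes. That range was not computed over all probes. The range of the 3 group means within W82 had a median of 0.69 for the 85 probes and 0.33 for all probes. Within DT2008 it was 0.39 and 0.32. The probe that varied most, with a range of 3.09, is number 12214420, which is described with the dehydration responses. At 10 h, 53 of the 85 differences were closer to 0 than at 0 h, and the median shift of the difference from 0 h was 0.23 at 10 h and 0.01 at 2 h. Across all probes 50.5% of the differences were higher at 10 h than at 0 h.

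**Figure D1:**
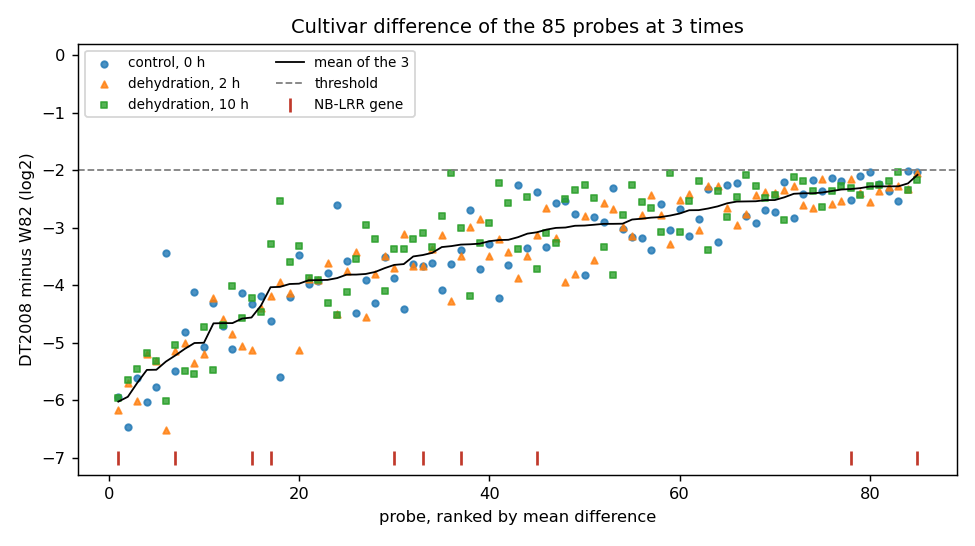
DT2008 minus W82 differences of group means (log2, vertical axis) for the 85 probes, ranked by the mean of their 3 differences (horizontal axis), with 1 marker for each time, a line for the mean, the threshold at -2 dashed and ticks under the 10 probes for NB-LRR genes. Means run from -6.03 to -2.08, and the NB-LRR probes occur at both ends of the ranking.

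At the edge of the selection, the 3 probes nearest to the threshold on the inside had weakest differences of -2.01, -2.02 and -2.03, and the 3 nearest on the outside had -1.99, -1.96 and -1.96. The inner ones include Glyma.06G265000 and the outer ones Glyma.13G190300, so the edge separates probes with nearly the same values. Single-time counts were larger, with 214, 234 and 146 probes at or below -2 at 0, 2 and 10 h. In the opposite direction, 132, 129 and 61 probes were at or above 2, and 37 probes (0.0559% of all) were so at all 3 times.

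A gene could be named for 27 of the 85 probes, covering 26 genes, and 58 stayed unnamed. Of all probes 7.28% could be named the same way. All 24 Glyma identifiers among them came from the study's own lists of genes that differed between the cultivars on these samples, so a count of gene families among them is not independent evidence of direction. Within that limit, 10 of these 24 probes were for NB-LRR genes. The NB-LRR list held 48 probes in all, with a median mean difference of -1.27, and 39 of the 48 lay below 0, between a lowest of -6.03 and a highest of 3.81. Of these 48 probes, 13 were in the study's tables of the whole array. The other list probes were mostly named through the study's lists of genes that changed or differed on these samples. The median and direction of the list are thus not independent of that choice, and they do not describe the whole family. One NB-LRR probe was among the 37 that were high in DT2008 at all times.

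The probe for Glyma.06G259800, whose best Arabidopsis match is a TIR-type NB-LRR gene, had the lowest mean difference of the set. Its values in DT2008 were -3.07, -2.88 and -2.47 at 0 h, -2.91, -3.02 and -3.08 at 2 h, and -3.27, -3.66 and -3.23 at 10 h. In W82 they were 3.39, 3.36 and 2.65 at 0 h, 2.84, 3.29 and 3.41 at 2 h, and 2.70, 2.55 and 2.47 at 10 h. Every DT2008 array was low and every W82 array high, with 4.94 log2 units between the highest DT2008 and the lowest W82 array. The other TIR-type genes in the set were Glyma.01G033300 with a mean difference of -3.29, Glyma.03G047900 with -3.08 and Glyma.06G265000 with -2.08. Glyma.01G033300 and Glyma.06G259800 share the same best match in Arabidopsis.

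The other 6 NB-LRR genes matched the NB-ARC class without a TIR label, and 4 of them had RPM1 as their best match in Arabidopsis, where RPM1 is a receptor that detects bacterial effectors. These 4 were Glyma.18G082200 (mean difference -5.22, or 37.3-fold), Glyma.08G318000 (-4.56, 23.6-fold), Glyma.18G084400 (-4.03, 16.4-fold) and Glyma.18G083200 (-3.65, 12.5-fold). Glyma.18G082200 read between -2.89 and -2.16 on the DT2008 arrays, against 2.16 to 3.15 on the W82 arrays. Glyma.08G318000 spread more, with DT-C arrays at -1.05, -2.36 and -2.63 and W-D10 arrays at 2.10, 1.05 and 1.90, and its cultivars still did not overlap. Glyma.03G037000 (-3.47) and Glyma.12G236500 (-2.33) completed the group.

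Of the RPM1-like genes, 3 lie close together in name order on chromosome 18, where the digits after the G of a Glyma identifier rise along the chromosome. On the array, adjacent probe numbers mostly follow the same order: of 1873 adjacent pairs of rows named on the same chromosome, 95.4% had rising gene numbers. The order can run through a chromosome repeatedly, since the probe for Glyma.18G287900 comes before that for Glyma.18G082200. Array neighbours are thus not all of the neighbours on the chromosome. Glyma.18G082200, Glyma.18G083200 and Glyma.18G084400 stood within 22 consecutive rows of the array, which also held 2 unnamed probes of the set, beside Glyma.18G082200, with mean differences of -2.69 and -5.47. The other 17 probes of this stretch had a median difference of -0.14, from -2.47 to 0.32, and 4 of them were at or below -1. One of these 4 was for another NB-LRR gene, Glyma.18G082300, with differences of -1.94, -1.67 and -1.53 at 0, 2 and 10 h. The 20 rows outside the stretch, 10 on each side, had a median of -0.04 and a lowest value of -1.76. Low readings thus alternated with readings near 0 along the stretch.

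**Figure D2:**
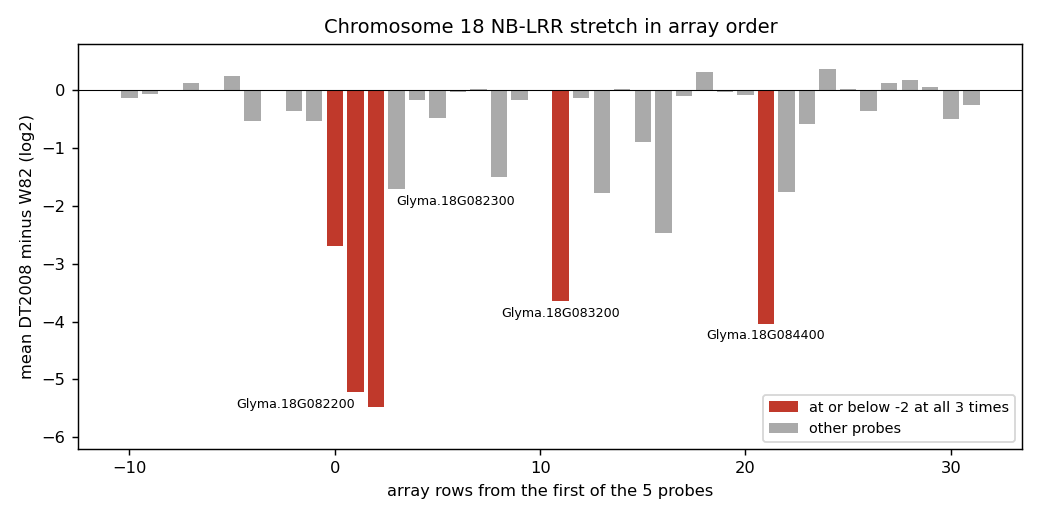
Mean DT2008 minus W82 difference over the 3 times (log2, bars) for the probes around the chromosome 18 NB-LRR genes, in array order (horizontal axis, rows counted from the first of the 5 probes of the set). Red bars are the 5 probes at or below -2 at all times and grey bars the others, whose median within the stretch was -0.14.

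Position in the array order was uneven over the whole set. For 80 of the 85 probes the chromosome could be read from the probe's own Glyma identifier or from the named rows on both sides, and 20 of the 80 (25%) were on chromosome 18, against 6.10% of the 60385 probes placed the same way and 4 of the 34 probes placed among those high in DT2008. This is a description of array order, and the positions themselves were not read from a genome. Of the 85 probes, 15 had another of the set within 5 array rows and 26 within 20 rows. Among the 37 probes high in DT2008 none had another of its set within either distance. That set is smaller, so fewer neighbours would be found in it at any spacing, and no expected count was computed. In the array order, 2 other runs of 3 probes and 1 run of 2 lay between rows named on chromosome 18, with mean differences from -5.70 to -2.41. One run of 3 lay between Glyma.18G063500 and Glyma.18G087800, an interval that spans the RPM1-like genes above. The run of 2 lay between Glyma.18G272000 and Glyma.18G287900. The other run of 3 lay between Glyma.18G278900 and Glyma.18G289000, which overlaps that interval. Runs apart on the array thus need not be separate places on the chromosome.

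Glyma.16G015700 matched the ORMDL family, proteins of the endoplasmic reticulum that restrain sphingolipid synthesis in yeast and Arabidopsis, and was the lowest of the named probes outside the NB-LRR family. Its values in DT2008 were -2.68, -3.47 and -2.98 at 0 h, -3.14, -3.15 and -3.21 at 2 h, and -2.77, -2.55 and -1.92 at 10 h. In W82 they were 2.15, 2.05 and 1.92, then 2.05, 2.06 and 2.00, and at 10 h 2.26, 2.14 and 2.52. The W82 arrays were nearly level over the time course and the DT2008 arrays all lay at least 3.83 below them. Glyma.03G018900, for a phospholipase D of the beta class, which releases the lipid signal phosphatidic acid, had a mean difference of -3.91, with a range of 0.014 between its 3 differences. That was the smallest range over the time course in the set.

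LOC100305358 was represented by 2 probes, and no function was given for it in the annotation used here. One had a mean difference of -4.35 and the other -2.52. On both, the lowest W82 array was W-C replicate 3, at 1.44 and 0.75, where the other W-C arrays read 3.10 and 3.12 on one probe and 1.77 and 2.22 on the other. LOC547562, also named KNBS1, had a mean difference of -3.29. It had no domain or Arabidopsis match in the annotation used here, so whether it belongs to the NB-LRR family was not tested. Its difference widened at 10 h by 1.50 log2 units relative to 0 h, with DT-D10 arrays at -2.81, -1.94 and -2.70 and W-D10 arrays at 1.57, 1.66 and 1.88.

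Several named probes were for enzymes. Glyma.09G094600, for an O-methyltransferase, had a mean difference of -3.32, Glyma.20G192700, for cycloartenol synthase, the enzyme that forms the first ring structure of plant sterols, had -3.21, and Glyma.08G256600, for allene oxide cyclase, an enzyme of jasmonate synthesis, had -2.66. Glyma.18G220500, whose best match in Arabidopsis is an NAD(P)-binding enzyme, had -2.69. All 4 had larger ranges over the time course in W82 than in DT2008, and the first 3 are described with the dehydration responses.

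Receptor-like proteins of the cell surface were represented by Glyma.16G169700, matching receptor like protein 27, with a mean difference of 7.97-fold, and by Glyma.08G198900, a leucine-rich repeat protein kinase, with -2.82. The leucine-rich repeat list without NB-ARC held 32 probes with a median mean difference of -0.32, of which these were the 2 in the set. Glyma.08G198900 was the 1 member of the protein kinase list among 100 kinase probes, whose median was -0.05. Glyma.09G022800, the 1 class III peroxidase of 23 probes on that list, had a mean difference of -2.40, where the list median was -0.58. No probe of the transcription factor list (271 probes), the transporter list (100), the F-box, U-box and RING list (56), the cytochrome P450 list (39), the cell wall enzyme list (34), the glutathione S-transferase list (28), the 2-oxoglutarate oxygenase list (21), the UDP-glycosyltransferase list (19) or the protein phosphatase 2C list (14) was in the set. A list can hold only probes with an annotation, and 58 of the 85 probes stayed unnamed. Part of the annotation came from the study's lists of genes that changed on these samples, so list medians do not describe whole families. Absence from a list thus does not mean that the family is absent from the set.

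The remaining named probes were of several kinds. Glyma.16G161100 (-3.80) and Glyma.05G126300 (-3.23) encode DUF247 proteins and Glyma.08G114500 (-2.95) a DUF616 protein, families named for a conserved domain of unknown function. Glyma.18G287900 (-2.40) encodes a heat shock protein of the HSP70 family, a chaperone, and Glyma.07G037300 (-2.31) an ELF4-like protein, a relative of a component of the plant circadian clock. Both lay between -1.84 and -0.74 on the DT2008 arrays, against 0.74 to 1.66 on the W82 arrays.

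**Figure D3:**
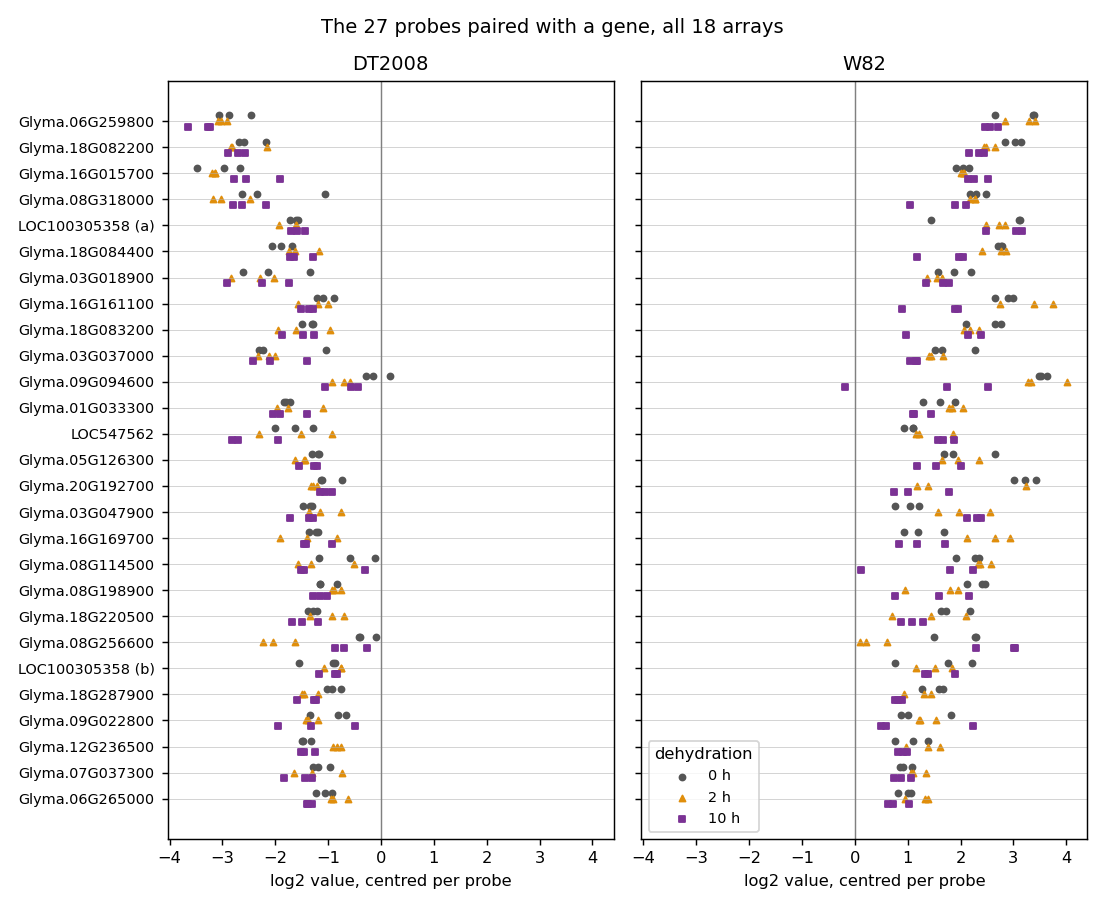
Values of the 27 probes paired with a gene on every array (log2, centred per probe), DT2008 in the left panel and W82 in the right, with 3 arrays for each time and genes ordered by mean difference. LOC100305358 has 2 probes, a and b. The panels do not overlap for any gene but Glyma.09G094600, whose W-D10 replicate 3 read -0.18.

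The tests of dehydration asked which of these probes changed within a cultivar. A change was called at an adjusted p under 0.05 in limma, with the Benjamini-Hochberg method over all probes of the array, and at least 2-fold. In DT2008, 3 of the 85 probes rose and 3 fell at 2 h, against 2.89% and 1.19% of all probes, and 3 rose and 1 fell at 10 h, against 2.75% and 1.71%. In W82, 8 rose and 5 fell at 2 h, against 1.83% and 0.884% of all probes, and 5 rose and 10 fell at 10 h, against 3.49% and 1.66%. Without W-D10 replicate 3 the W82 counts at 10 h were 4 and 8, and 6 of those 8 were among the 10 above. Counted over both times, 8 of the 85 probes (9.41%) were called in DT2008 and 21 (24.7%) in W82, and 2 were called in both. Of all probes, 6.41% were called in DT2008 and 6.23% in W82. Both times of a cultivar share its control arrays.

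For 58 of the 85 probes there was no call at either time in either cultivar, a share that was not computed over all probes. Calls were made in DT2008 for 9.41% of the set and 6.41% of all probes, and in W82 for 24.7% and 6.23%. The median size of a change of the 85 probes, whatever its sign, was 0.28 at 2 h and 0.28 at 10 h in DT2008. All probes had 0.20 and 0.20 there. In W82 it was 0.33 at 2 h and 0.64 at 10 h, where all probes had 0.19 and 0.22. The range of the 3 group means was smaller in DT2008 than in W82 for 61 of the 85 probes (71.8%), while this held for 51.1% of all probes and for 12 of the 37 probes that were high in DT2008. Of those 37, 6 were called in DT2008 (16.2%) and 1 in W82 (2.70%). In each set the count was lower in the cultivar that read low. Each set was selected for a higher reading in the other cultivar, so this order is not independent of the selection. For the 85 probes that order held on the deposited scaling and not with quantile normalization, where 20 were called in DT2008 and 16 in W82. That step was applied to values already centred per probe. Whether the step itself moved these probes, which were selected for extreme values, was not tested. The spread between replicates within a group had a median SD of 0.28 in DT2008 and 0.27 in W82 for the 85 probes, against 0.19 and 0.18 over all probes. The difference between the cultivars' responses is a difference between the values that selected the probes, so it was not tested for any of them.

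**Figure D4:**
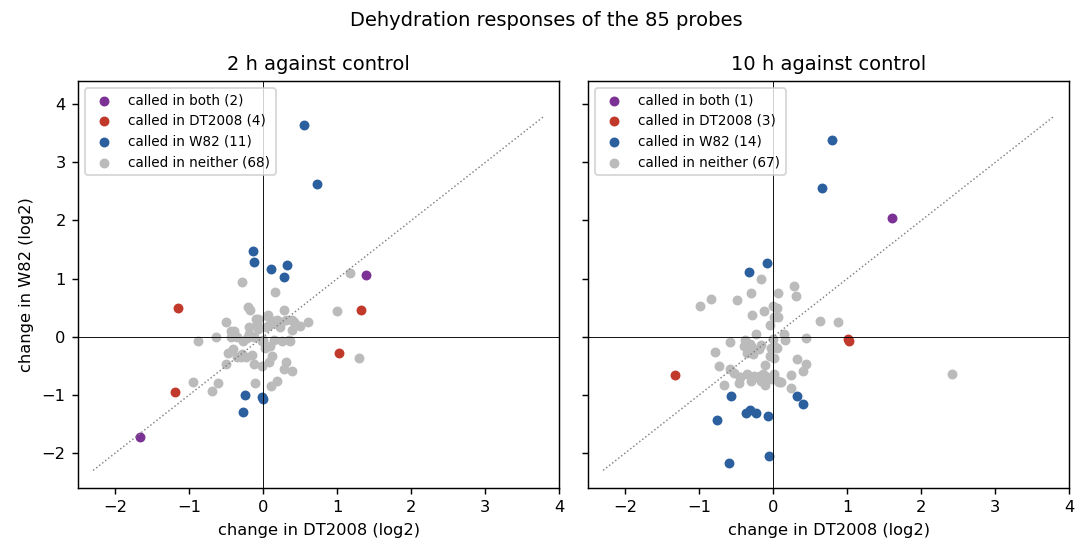
Dehydration change in DT2008 (log2, horizontal axis) against the change in W82 (log2, vertical axis) of the 85 probes, at 2 h (left panel) and 10 h (right panel) relative to the control arrays of the same cultivar, coloured by the limma call in each cultivar, with equal changes dotted. At 10 h, 14 probes were called in W82 alone, 3 in DT2008 alone and 1 in both.

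The 8 probes that rose in W82 at 2 h changed by -0.14 to 1.39 log2 units in DT2008, where 1 of them was called, and by 1.03 to 3.65 in W82. The 10 that fell in W82 at 10 h changed by -0.76 to 0.40 in DT2008, with none called, and by -2.18 to -1.02 in W82. The change had the same sign in both cultivars for 6 of those 8 and for 8 of those 10. These probes were picked for their call in W82, which favours a larger change there. The same counts over all probes called in W82 were not computed.

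The largest response belonged to unnamed probe 12214420, singled out after its values were seen, whose neighbour in array order was the probe left out of the set. Its values in DT2008 were -2.21, -2.09 and -2.23 at 0 h, -2.01, -1.27 and -1.59 at 2 h, and -1.49, -1.22 and -1.43 at 10 h. In W82 they were 1.22, 1.22 and 1.35 at 0 h, 4.84, 4.64 and 5.24 at 2 h, and 4.75, 4.81 and 4.36 at 10 h. All DT2008 arrays stayed low, while the W82 arrays at 2 h and 10 h were far above their controls. In DT2008 the change was 0.56 ± 0.18 at 2 h (SE, adjusted p = 0.057 in limma) and 0.80 ± 0.18 at 10 h (adjusted p = 0.0061 in limma), both under 2-fold. In W82 it was 3.65 ± 0.18 at 2 h (SE, 12.5-fold, adjusted p = 1.42e-09 in limma) and 3.38 ± 0.18 at 10 h (10.4-fold, adjusted p = 8.68e-10 in limma). A further unnamed probe on the array between rows named on chromosome 18 had changes of 0.72 at 2 h and 0.65 at 10 h in DT2008, without a call, and of 2.62 and 2.56 in W82, both called.

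Probe 11987235, also unnamed and singled out after its values were seen, was the 1 probe of the set that rose in both cultivars at both times. It changed by 1.39 ± 0.16 at 2 h and 1.61 ± 0.16 at 10 h in DT2008, and by 1.06 ± 0.16 and 2.04 ± 0.16 in W82 (SE, adjusted p from 6.17e-08 to 0.000287 in limma). Its DT-C arrays read -2.20, -2.25 and -2.21 and its DT-D10 arrays -0.51, -0.74 and -0.60, still below the W-C arrays at 0.91, 0.61 and 0.51. Its DT2008 readings were low relative to W82, and whether they were above the array's background could not be seen.

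Among the named genes, 1 was called in DT2008 and 7 in W82, and that 1 was among the 7, where 6.41% of all probes were called in DT2008 and 6.23% in W82. The order of the cultivars turns round for the whole set under quantile normalization, as given above. The gene called in both was Glyma.08G256600, for allene oxide cyclase, which fell at 2 h by 1.67 ± 0.25 in DT2008 (3.18-fold, adjusted p = 0.000132) and by 1.72 ± 0.25 in W82 (SE, 3.29-fold, adjusted p = 0.000161, both in limma). In DT2008 it read -0.09, -0.41 and -0.41 at 0 h, -1.64, -2.05 and -2.22 at 2 h, and -0.87, -0.26 and -0.69 at 10 h. In W82 it read 2.30, 2.28 and 1.50 at 0 h, 0.09, 0.61 and 0.22 at 2 h, and 3.03, 2.30 and 3.02 at 10 h. Both cultivars dipped at 2 h, and at 10 h neither change from control was called.

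Glyma.20G192700, for cycloartenol synthase, changed in W82 and was not called in DT2008. In DT2008 the gene read -1.13, -0.74 and -1.12 at 0 h, -1.20, -1.32 and -1.28 at 2 h, and -0.93, -1.06 and -1.16 at 10 h. In W82 it fell by 1.29 ± 0.37 at 2 h (SE, adjusted p = 0.035 in limma) and by 2.05 ± 0.37 at 10 h (4.14-fold, adjusted p = 0.000618 in limma). Its W82 arrays read 3.42, 3.23 and 3.02 at 0 h, 1.18, 3.23 and 1.38 at 2 h, and 1.00, 0.74 and 1.78 at 10 h, so W-D2 replicate 2 was at the control level. The call at 2 h was lost, at adjusted p from 0.060 to 0.19, on leaving out W-D2 replicate 1 or 3 or any of the 3 W-C arrays, and the change was -1.94 without W-D2 replicate 2.

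Glyma.09G094600, for the O-methyltransferase, was likewise called in W82 alone. In DT2008 its values were -0.28, -0.16 and 0.16 at 0 h, -0.70, -0.58 and -0.93 at 2 h, and -0.56, -1.07 and -0.43 at 10 h. In W82 it fell at 10 h by 2.18 ± 0.42 (SE, 4.53-fold, adjusted p = 0.0013 in limma). Its W82 arrays read 3.48, 3.51 and 3.63 at 0 h, 4.02, 3.28 and 3.33 at 2 h, and 2.52, 1.74 and -0.18 at 10 h. The 10 h arrays were all below the others but far apart, and without W-D10 replicate 3 the change was -1.41 (adjusted p = 0.00093 in limma). At 10 h, Glyma.18G084400, one of the RPM1-like genes of chromosome 18, changed by 0.32 in DT2008 and Glyma.16G161100, for a DUF247 protein, by -0.31, without a call. In W82 Glyma.18G084400 fell by 1.02 ± 0.21 and Glyma.16G161100 by 1.26 ± 0.26 at 10 h (SE, adjusted p = 0.0023 and 0.0020 in limma). Both of these calls were lost without W-D10 replicate 3, where the changes were -0.74 and -0.92, under 2-fold.

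The TIR-type gene Glyma.03G047900 changed by 0.28 at 2 h and -0.08 at 10 h in DT2008, without a call. In W82 it rose at both times, by 1.03 ± 0.21 at 2 h (SE, adjusted p = 0.0045 in limma) and 1.26 ± 0.21 at 10 h (adjusted p = 0.00035 in limma). Its W82 arrays read 1.05, 1.22 and 0.76 at 0 h, 2.56, 1.58 and 1.97 at 2 h, and 2.30, 2.39 and 2.12 at 10 h. The 2 h change was 0.76 without W-D2 replicate 1 and 0.90 without W-C replicate 3, both under 2-fold. Glyma.16G169700, the receptor like protein, changed by -0.12 at 2 h in DT2008, without a call. In W82 it rose by 1.29 ± 0.27 at 2 h (SE, adjusted p = 0.0057 in limma) and changed by -0.03 at 10 h. Of the 10 NB-LRR probes in the set, none was called in DT2008 and 2 were called in W82, one in each direction, where 6.41% of all probes were called in DT2008 and 6.23% in W82.

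**Figure D5:**
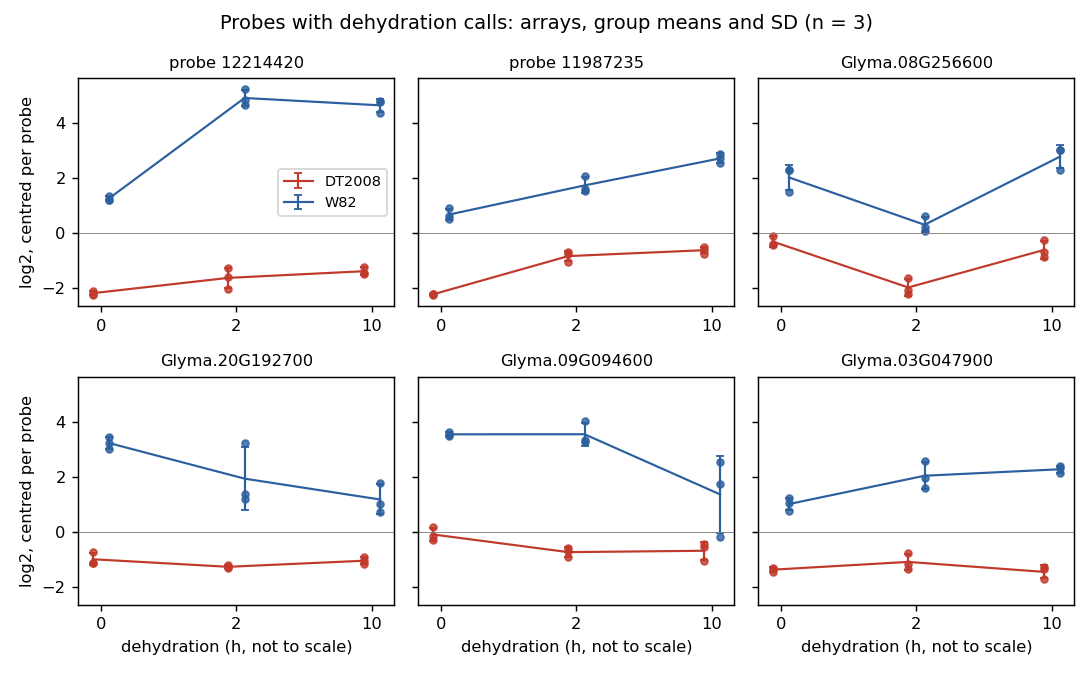
Time courses of 6 probes with dehydration calls, as log2 values centred per probe (vertical axis) at 0, 2 and 10 h of dehydration (horizontal axis, not to scale), with points for arrays and lines for group means with SD (n = 3), DT2008 in red and W82 in blue. DT2008 lies below W82 at every time in all 6, and both cultivars fall at 2 h for Glyma.08G256600.

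The 6 probes called in DT2008 but not in W82 were all unnamed. At 2 h 6 probes were called in DT2008, of which 2 were called the same way in W82, and at 10 h 4 were called, of which 1 was called the same way in W82. A further unnamed probe had the largest change of any in DT2008, 2.42 between the 0 h and 10 h means, without a call. Its 3 DT-D10 arrays read -0.30, -3.54 and -1.36, against -5.66, -3.23 and -3.57 in DT-C, so the groups overlapped.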

How the data were processed

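RNA of soybean roots was hybridised to the Affymetrix 66K soybean array, and the authors processed the arrays with Affymetrix Expression Console and GeneSpring version 11. The deposited log2 values are normalized by RMA per the labels. No version of either Expression Console or RMA was given in the sources used here. Each probe's median over the 18 arrays was 0 within 5e-07, so brightness was not available and no filter on dim probes was applied, and array medians lay between -0.02 and 0.02. The number of arrays limits the precision. The members and gene lists were chosen with earlier results of these data known.

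Group means of 3 arrays gave the cultivar differences. The 4 dehydration contrasts were fitted to all 18 arrays with limma 3.58.1 in R 4.3.3 (lmFit, eBayes, 12 residual and 6.28 prior degrees of freedom), with Benjamini-Hochberg adjustment over all probes. The code was tested on simulated data. Tables were made with Python 3.11.15, pandas 2.3.3 and NumPy 2.4.6, and figures with Matplotlib 3.10.9. Probes were named through the Glyma 2 identifiers of the study's supplementary tables or, failing that, the platform's gene symbol, and gene lists through Pfam domains and best Arabidopsis matches. Described in full were members with exactly 1 gene: the 12 with the lowest mean difference, up to 4 per contrast and direction with the lowest adjusted p, up to 3 per gene list, members named in the study's text, and members near each other on a chromosome. The other members with a gene are given by their differences. Alternatives were another threshold, group medians, array centring, quantile normalization, a t-test as in the study's methods, fits on 2 groups, array weights, a robust fit, the replicate number as a block, and leaving out each array. Probe and promoter sequences were not used here.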

Additional observations from a re-analysis of the deposited data

How the results depend on the processing

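The number of probes at or below -2 at all times was 419 at a threshold of -1 and 32 at -3. It was within 1.5 times 85 for group medians, array centring and quantile normalization, and ran from 80 to 88 on leaving out single arrays. With the replicate block the counts of calls were unchanged, at 3 and 3 (rose and fell, DT-D2/DT-C), 3 and 1 (DT-D10/DT-C), 8 and 5 (W-D2/W-C) and 5 and 10 (W-D10/W-C), and samples with the same number did not deviate together (r from -0.06 to 0.07). The methods' t-test, at the study's 2-fold and adjusted p thresholds, left 1 and 0 for DT-D2/DT-C and 1 and 0 for DT-D10/DT-C. In W82 it left 1 and 0 for W-D2/W-C, and 4 and 1 for W-D10/W-C. A fit of the 2 groups alone left 3 that fell in W-D2/W-C. With no fold threshold, 6 rose in DT-D2/DT-C, 5 rose and 2 fell in DT-D10/DT-C, 8 fell in W-D2/W-C, and 9 rose and 21 fell in W-D10/W-C. Quantile normalization gave 0 that rose and 9 that fell in DT-D2/DT-C, 1 that rose and 14 that fell in DT-D10/DT-C, 1 that fell in W-D2/W-C and 5 that fell in W-D10/W-C, so the lower number of calls in DT2008 than in W82 rests on the deposited scaling. The cause was not tested.

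On leaving out single arrays, the counts that rose and fell ran from 2 to 4 and 1 to 3 (DT-D2/DT-C), 1 to 4 and 1 to 4 (DT-D10/DT-C), 7 to 8 and 2 to 5 (W-D2/W-C), and 4 to 7 and 8 to 11 (W-D10/W-C). The arrays that moved a count by over 1.5 times were W-C replicates 1 and 3 and W-D2 replicates 1 and 2 for the falls in W-D2/W-C (2, 3, 2 and 3). For the falls in DT-D2/DT-C they were DT-C replicate 2 and DT-D2 replicate 2 (1 each). For DT-D10/DT-C they were DT-C replicate 3 (1 rose, 4 fell), DT-C replicate 2 (2 fell), and DT-D10 replicates 1 and 2 (2 and 3 fell). Of the 10 calls of named genes, 6 held in all such fits, 9 were lost in the t-test, 3 with quantile normalization, 2 with array weights and 1 in the fit of 2 groups, and none changed direction.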
